A study of Canis lupus familiaris with 40 samples.

Results

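Genes that were low in neutrophils and monocytes of healthy dogs and present in both subsets of myeloid-derived suppressor cells (MDSCs) were examined. MDSCs are cells of the neutrophil and monocyte lineages that build up in cancer and restrain T cells. The polymorphonuclear subset (PMN-MDSC) shares its lineage with neutrophils, and the monocytic subset (M-MDSC) shares its lineage with monocytes. Mature neutrophils are short-lived cells with little RNA, whereas monocytes transcribe a broader range of genes.

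A gene was kept if its deposited value, in CPM (counts scaled to the total of the library), was under 20000 in every library, its mean was under 2 CPM in both healthy populations, and its median was at least 3 CPM in PMN-MDSCs and at least 1 CPM in M-MDSCs. These limits left 37 of the 24580 Ensembl genes listed. A cap of 200 genes was not reached. The genes were thus chosen by their CPM in healthy cells and MDSCs, so that these values are a description and carry no test. Of 14566 genes under both healthy limits, 143 reached the PMN-MDSC limit and 441 reached the M-MDSC limit. The files do not pair Ensembl IDs with gene names, and 0 of the 24580 IDs had a symbol in the gene table used here. The genes are therefore given by number, from 1 for the highest to 37 for the lowest PMN-MDSC median, and 4 are given by ID. What these genes encode was not analysed here.

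The cells were sorted from the blood of dogs, and their RNA was amplified with Smart-seq2, a protocol for low input. Tumor-bearing dogs had various spontaneous cancers and gave 9 PMN-MDSC, 5 M-MDSC, 10 C PMN and 8 C MONO libraries, and healthy dogs gave 5 H PMN and 3 H MONO libraries. MDSCs came from the low-density mononuclear layer of a gradient and were CD5-CD21-MHCII-CD11b+, and the PMN-MDSCs were CADO48A+CD14- while the M-MDSCs were CADO48A-CD14+. CADO48A is a marker of canine neutrophils. Monocytes (C MONOs in cancer, H MONOs in health) came from the same layer as MHCII+CD14+ cells, and neutrophils (C PMNs and H PMNs) from the dense pellet. The MDSC gate is thus also a gate on density and MHCII, and it has no healthy counterpart among these libraries. Age and the dog behind each library are not given in the sources used here. The paper speaks of PMN-MDSCs and PMNs of the same patient, so that dogs probably gave libraries to more than 1 population. The fits do not use this pairing, and p-values measure the spread between these libraries.

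Counts on genes ranged from 4229857 to 60473238 per library. PMN-MDSC replicate 9 and C PMN replicate 7 had under 10000000 counts. The paper reports fewer PMN-MDSC and C PMN libraries than are used here. It does not state which libraries it left out, so whether it used these is not known. Library names begin with GAR4079 or PAT4694, and every healthy library has the first prefix, so that health cannot be told apart from prefix for the PAT4694 libraries. As a check of the labels in the absence of gene names, the 50 highest neutrophil-restricted genes and the 50 highest monocyte-restricted genes were taken from the healthy libraries. The neutrophil list took between 4.86% and 40.3% of counts in PMN-MDSC and C PMN libraries, and the monocyte list took between 6.41% and 13.05% in M-MDSC and C MONO libraries. The lists required at least 50 CPM in healthy cells, so that none of the 37 genes could be on them.

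The genes were low in healthy cells but not silent. The number with 0 counts in all 8 healthy libraries was 0. The mean was at least 1 CPM in H PMNs for 15 genes and in H MONOs for 20 genes. Both healthy means were under 1 CPM in 13 genes and under 0.5 CPM in 3. Over the 37 genes the median of the H PMN means was 0.824 CPM (range 0.0319 to 1.99), and that of the H MONO means was 1.0995 CPM (range 0.0333 to 1.94). The label of genes absent from healthy cells was therefore not met by the values, and they are described here as genes low in healthy cells. The lower M-MDSC limit also left an overlap, since 8 genes had an M-MDSC median at or below their own H MONO mean.

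The genes were carried mainly by PMN-MDSCs. The median over the 37 genes of the PMN-MDSC median was 6.96 CPM (range 3.01 to 80.96), and that of the M-MDSC median was 1.66 CPM (range 1.03 to 5.41). The PMN-MDSC median was above the M-MDSC median in 35 genes, with a median ratio of 3.73, which the unequal limits favor. Both tumor-bearing populations that the limits did not use lay lower than the MDSC subset of their lineage, C MONOs only slightly so. The limits set a lowest median for MDSCs alone, which favors this order, and nothing is read from it. The median of the gene medians was 0.673 CPM in C PMNs (range 0.0183 to 5.83) and 1.53 CPM in C MONOs (range 0.0330 to 7.61). The C MONO median was at least 1 CPM, the limit set for M-MDSCs, in 27 genes. In bulk samples, fewer cells that hold a transcript and less of it in each cell cannot be told apart.

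**Figure D1:**
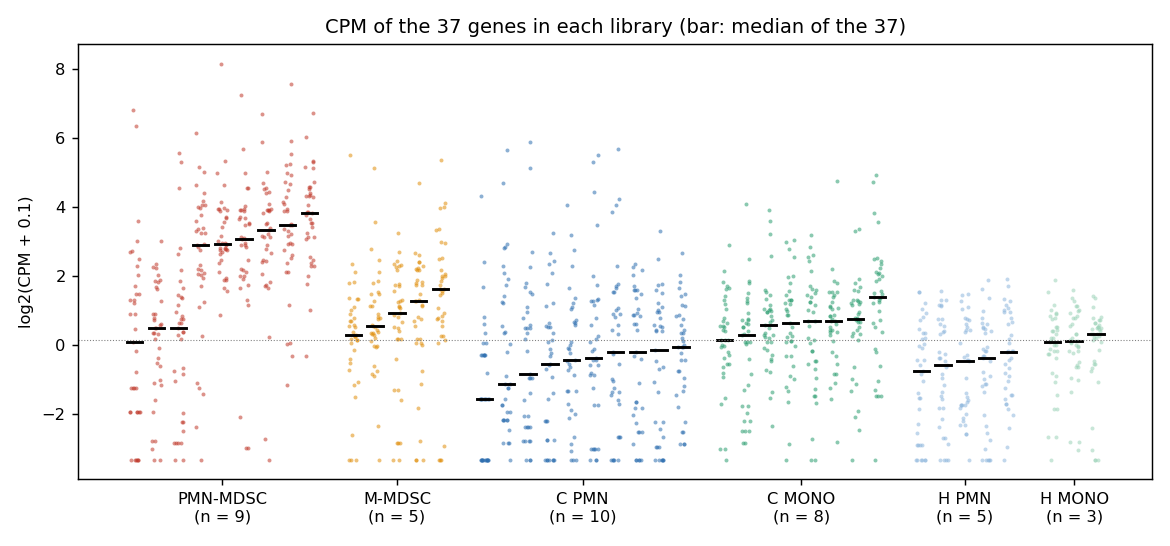
CPM of the 37 genes on a log2 scale after adding 0.1, for each of the 40 libraries, with a bar at the median of the genes. Libraries are ordered by this median within a population, and a dotted line marks 1 CPM. Of the PMN-MDSC libraries, 6 have medians of 7.39 to 14.1 CPM and 3 have medians of 0.952 to 1.30 CPM.

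Near the limits, the values were close together. The highest H PMN mean inside was 1.99 CPM and the lowest outside, among genes that met the other limits, was 2.02 CPM. The corresponding values were 1.94 and 2.05 CPM for H MONOs. The lowest PMN-MDSC median inside was 3.01 CPM and the highest outside was 2.93 CPM. For M-MDSCs these were 1.03 and 0.999 CPM. The M-MDSC limit left out 106 genes that met all others, and the PMN-MDSC limit left out 404.

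Gene 1 was the most abundant by reads. Its CPM in PMN-MDSCs had a lowest value of 3.60, a median of 80.96 and a highest value of 282. In M-MDSCs it was 0.0383, 3.34, 5.22, 11.7 and 41.1 CPM. The C PMN libraries ran from 0.976 to 8.92 CPM with a median of 2.30 CPM, and the C MONO libraries from 1.15 to 11.7 CPM with a median of 6.33 CPM. Only the lowest PMN-MDSC library lay within the C PMN range, whereas the M-MDSC range spanned that of the C MONOs. H PMNs had 0.479, 1.06, 2.10, 2.32 and 2.68 CPM, and H MONOs had 0.897, 0.955 and 3.56 CPM. Every healthy library was thus below the lowest PMN-MDSC library for this gene.

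Gene 2 was at 0 counts in 3 of 5 H PMN libraries. In the PMN-MDSC libraries it ran from 2.14 to 112 CPM with a median of 39.8 CPM. M-MDSCs had 2.87, 3.47, 4.41, 34.8 and 45.1 CPM, a split between 3 low and 2 high libraries. The C PMN libraries ran from 0.0926 to 21.5 CPM, with all others than the highest at or below 3.20 CPM. In C MONOs the values were 1.01 to 26.6 CPM. Each tumor-bearing population therefore held at least 1 library above 20 CPM for this gene.

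Per unit of gene length, in TPM (counts scaled to gene length and then to the total), the order was different. The highest PMN-MDSC medians were 84.9 TPM for gene 9, 42.3 TPM for gene 32 and 40.7 TPM for gene 2. The median over the genes was 6.58 TPM in PMN-MDSCs, 1.34 TPM in M-MDSCs, 0.562 TPM in C PMNs and 1.01 TPM in C MONOs. The gene length implied by the ratio of CPM to TPM was shorter for the 37 genes, with a median of 0.828 on a relative scale, than for 10390 genes with a mean of at least 1 CPM, with a median of 1.01. The quartiles overlapped, at 0.395 to 1.31 for the 37 genes and 0.541 to 1.83 for the others.

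In CPM, the PMN-MDSC libraries fell into a high and a low set for these genes. The limits used these same values to choose the genes, so that the division is a description and carries no test. Replicates 3, 8 and 9 had medians over the 37 genes of 1.29, 1.30 and 0.952 CPM, and the other 6 libraries had medians from 7.39 to 14.1 CPM. The number of genes at 3 CPM or more was 9, 8 and 10 in these 3 libraries and 29 to 35 in the other 6. The summed CPM of the genes was 65.8, 162 and 264 in the 3 libraries and 408 to 733 in the other 6. The sums in C PMNs were 41.1 to 148 CPM, so that 1 PMN-MDSC library lay within the C PMN range of sums. The place of replicate 9 depended on the scaling. With TMM factors its median was 6.36 and its sum 1765 CPM, the highest of all libraries, while replicates 3 and 8 stayed at medians of 1.43 and 1.26 CPM and the other 6 at 7.77 to 13.7 CPM. With TMM factors the C PMN sums were 45.3 to 276 CPM, and 2 PMN-MDSC libraries lay within that range. Replicate 3 had 43296791 counts, the most of the 9, and replicate 9 had 6299310, the fewest.

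**Figure D2:**
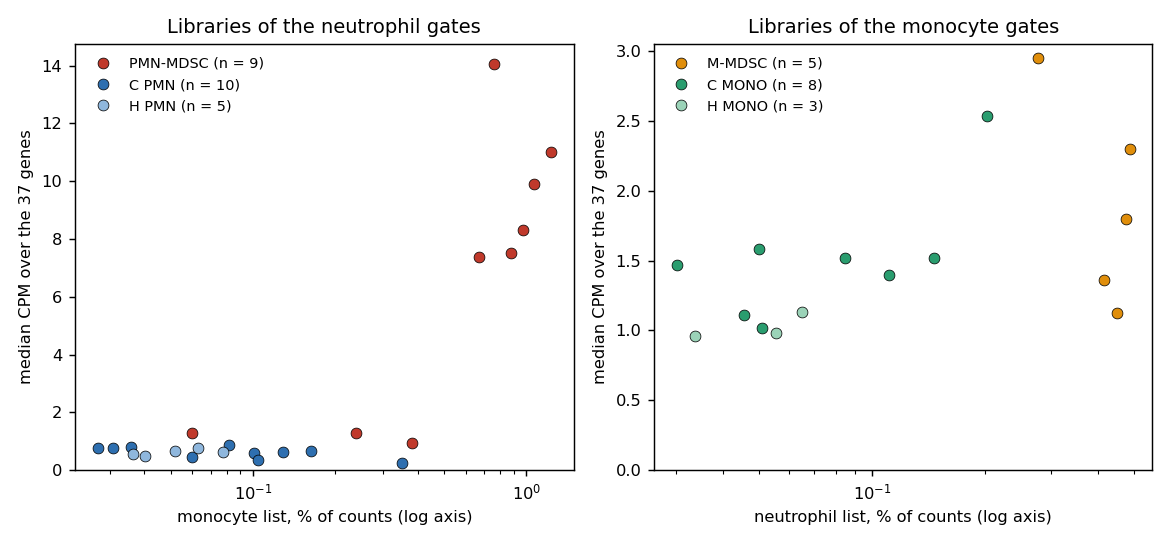
Median CPM over the 37 genes against the percent of counts on the monocyte list, in libraries of the neutrophil gates, and on the neutrophil list, in libraries of the monocyte gates, both on log axes. Each point is a library. The 6 PMN-MDSC libraries with gene medians of 7.39 CPM or more lie at 0.673% to 1.23% of counts on the monocyte list, to the right of every other library in their panel.

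The share of counts on the monocyte list moved with this division. It was 0.0596%, 0.238% and 0.380% in PMN-MDSC replicates 3, 8 and 9 and 0.673% to 1.23% in the other 6. In C PMNs it was 0.0270% to 0.351%. The neutrophil list took 9.01% to 15.9% in the 6 high libraries and 6.87%, 6.85% and 40.3% in replicates 3, 8 and 9. The share of the monocyte list was thus higher where the 37 genes were high in CPM. The list was defined by monocytes against neutrophils of healthy dogs, and which cells held its transcripts here was not tested. Their part in the level of the 37 genes was not tested either. With TMM factors the median of replicate 9 was 6.36 CPM at a share of 0.380%, so that for this library the pattern depended on the scaling. In M-MDSCs the neutrophil list took 0.278% to 0.487% and in C MONOs 0.0301% to 0.202%, with no overlap, and the M-MDSC library with the highest gene median (2.95 CPM) had the lowest share (0.278%).

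Across the PMN-MDSC libraries, whose values were used to choose the genes, the 37 genes varied together. The median pairwise Spearman correlation over the 9 libraries was 0.55 between the 37 genes and 0.183 between the 9531 genes with a mean of at least 1 CPM. Without replicate 9 these were 0.524 and 0.0238. The points share the library, its depth and its makeup, and the values are descriptive. The limits chose the 37 genes by their PMN-MDSC level, so that nothing is read from the difference to the other genes. In C PMNs (n = 10) the correlation was 0.00636 for the 37 genes and 0.236 for all genes. It was 0.1 and 0.1 in M-MDSCs (n = 5), and 0.0732 and 0.0238 in C MONOs (n = 8). The coefficient of variation across libraries had a median over the genes of 84.0% in PMN-MDSCs and 89.4% in M-MDSCs. All 9 PMN-MDSC libraries were at 3 CPM or more in 2 of the 37 genes, and all 5 M-MDSC libraries were at 1 CPM or more in 5 genes.

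Between PMN-MDSCs and C PMNs, which share the neutrophil lineage, the genes differed in median CPM by 11.3-fold (range over the genes 0.930 to 409). The PMN-MDSC median was the higher in 36 genes. The highest PMN-MDSC library was above every C PMN library in 33 genes, but 0 genes had every PMN-MDSC library above every C PMN library. The shares of all genes were not computed for these counts, and nothing is read from them. In edgeR's quasi-likelihood test, 17 of 33 genes tested were called higher and 0 lower at an FDR of 0.05, where 8.47% of all 10278 genes tested were called higher. The limits used the PMN-MDSC values, so that this count describes the choice and nothing is read from it. The median log2 fold change was 2.63 (range -1.16 to 7.05), with a median standard error of 0.75. In a fit of the PAT4694 libraries alone, edgeR called 0 of the 29 genes tested and 0 of all 9666 genes. That count therefore says nothing about the chosen genes.

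Between M-MDSCs and C MONOs, which share the monocyte lineage, the levels were close. The M-MDSC median was above the C MONO median in 21 genes and at or below it in 16, with a median ratio of 1.18. No gene had all M-MDSC libraries above all C MONO libraries (0 of 37). Here too the share of all genes was not computed, and nothing is read from the count. With edgeR's quasi-likelihood test 0 of 37 genes were called, where 0.758% of all 11874 genes tested were called, and 3 genes had an unadjusted p under 0.05, all of them higher, against 13.7% of all genes in either direction. The median log2 fold change was 0.38 (range -1.48 to 2.97), and the standard errors ran from 0.40 to 1.36 with a median of 0.82. In 34 genes the fold change plus and minus 2 standard errors included 0. With 5 and 8 libraries, any difference within that interval remained compatible with the values. DESeq2 called 1 gene, gene 11, at a log2 fold change of 2.99 with an adjusted p of 0.0324, against 4.28% of all genes called by DESeq2. As above, the limits used the M-MDSC values.

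**Figure D3:**
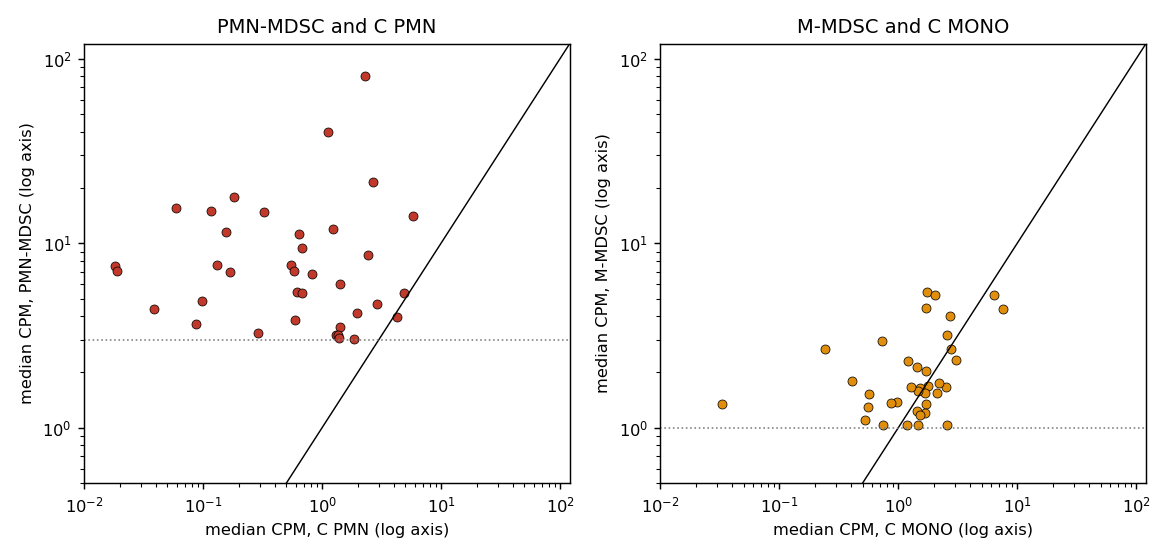
Median CPM of each of the 37 genes in PMN-MDSCs against C PMNs and in M-MDSCs against C MONOs, on log axes. The solid line marks equal values and the dotted line the limit that chose the genes. All but 1 of the points lie above the line for PMN-MDSCs, and 21 of 37 do for M-MDSCs.

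The limits used neither C PMNs nor C MONOs, and whether the genes differed by lineage outside the MDSC gate was tested there. They did hold the means of both healthy lineages under 2 CPM, so that the test is not wholly free of the choice. After TMM scaling, edgeR's quasi-likelihood test called 12 of the 34 genes tested higher in C PMNs and 6 lower, at an FDR of 0.05. Of all 11261 genes tested, 31.5% were called higher and 34.1% lower. The genes were thus not called more often than other genes in total, and 16 of the 34 did not pass the test. Genes with a high level in either healthy lineage had been left out and those kept have low counts. Nothing is therefore read from this share. The split depended on the scaling. With library size alone, 4 were called higher and 10 lower, where 13.1% and 50.9% of all genes were called. Over all genes tested, the median log2 fold change was -0.03 with TMM and -1.08 with library size alone, and that of the 34 genes was 0.43 and -0.85. These medians cover the 34 genes tested. The 3 genes that did not pass the filter on low counts had C PMN medians of 0.0183 to 0.0864 CPM and C MONO medians of 0.409 to 1.48 CPM. With no filter, which kept all 37, the median was 0.18 for the 37 genes and 0.41 for all genes, so that the position of the 37 genes relative to other genes changed side with the filter. Of the 12 genes higher with TMM, 4 were also called higher with library size alone, 8 were not called and 0 were called lower. All 6 genes that were lower with TMM were also called lower with library size alone. In the PAT4694 libraries alone 3 were called higher and 1 lower, against 13.7% and 18.3% of all genes. In the GAR4079 libraries alone 11 were called higher and 6 lower, against 29.5% and 33.7% of all genes.

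**Figure D4:**
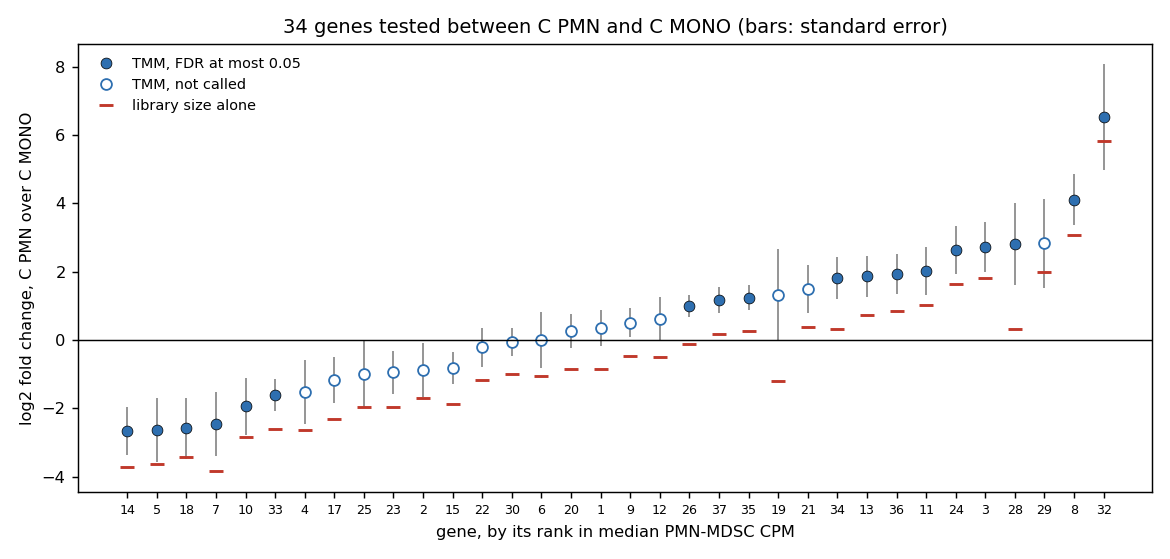
Log2 fold change of C PMNs over C MONOs for the 34 genes tested, in order of size, with standard errors as bars. Filled points passed an FDR of 0.05 after TMM scaling, and dashes give the value with library size alone. With TMM 12 genes are called higher and 6 lower, and all dashes lie below their points.

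ENSCAFG00000018011, gene 8, had the smallest FDR among the genes higher in C PMNs. Its C PMN libraries ran from 0 to 25.6 CPM with a median of 5.83 CPM, and its C MONO libraries from 0.153 to 4.12 CPM. C PMN replicate 7, the library of lowest depth, was at 0, the other C PMN libraries were at 2.34 CPM or more, and 1 C MONO library was above that. The log2 fold change was 4.12 (standard error 0.76, FDR = 8.01e-05). H PMNs had 0.938, 1.02, 2.05, 2.37 and 3.57 CPM and H MONOs 0.378, 0.542 and 0.670 CPM, and these did not overlap. PMN-MDSC libraries ran from 4.76 to 31.9 CPM and M-MDSCs had 0.901, 1.12, 1.52, 2.37 and 2.47 CPM. The populations of the neutrophil lineage were thus the higher in median in each setting for this gene.

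ENSCAFG00000025962, gene 32, was also higher in C PMNs, but in part of the libraries. The values were 0, 0, 0, 0.0187, 0.863, 1.94, 7.50, 16.5, 34.4 and 44.9 CPM in C PMNs, and at most 0.845 CPM in C MONOs. The 5 lowest C PMN libraries were at or below 0.863 CPM, near or within the C MONO range. The log2 fold change was 6.53 (standard error 1.55, FDR = 0.00100). In 6 of the fits that left out 1 C PMN library, the gene did not pass the filter on low counts and had no test. In PMN-MDSCs the values ran from 0 to 47.3 CPM with a median of 3.49 CPM.

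ENSCAFG00000002661, gene 14, had the smallest FDR among the genes lower in C PMNs. The C PMN libraries ran from 0 to 0.473 CPM and the C MONO libraries from 1.22 to 3.65 CPM, with no overlap in CPM. The highest C PMN value was that of replicate 7, whose TMM factor was 0.149, against 1.31 to 1.54 in C MONOs. With TMM factors this library was above the lowest C MONO library, so that the separation depended on the scaling. The log2 fold change was -2.66 (standard error 0.70, FDR = 0.00251). H PMNs had 0, 0, 0.0353, 0.182 and 0.322 CPM and H MONOs 0.751, 0.904 and 1.33 CPM. In PMN-MDSCs the values ran from 0.115 to 16.9 CPM with a median of 7.64 CPM, and in M-MDSCs they were 0.937, 1.14, 4.44, 4.55 and 5.60 CPM. The highest 6 PMN-MDSC libraries were thus above every C MONO library for a gene near 0 in C PMNs, and the lowest 2 were within the C PMN range.

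ENSCAFG00000019880, gene 33, was likewise lower in C PMNs, at 0.0401 to 0.413 CPM against 0.627 to 2.36 CPM in C MONOs, again with no overlap in CPM. With TMM factors C PMN replicate 7 was again above the lowest C MONO library. The log2 fold change was -1.61 (standard error 0.48, FDR = 0.00556). The values were 0.247 to 0.791 CPM in H PMNs and 0.816 to 2.08 CPM in H MONOs, and 0.162 to 14.2 CPM with a median of 3.26 CPM in PMN-MDSCs. Genes 14 and 33 were not called in the PAT4694 libraries alone, at log2 fold changes of -2.17 (FDR = 0.181) and -1.40 (FDR = 0.285). They were the only genes of the 37 in which every C MONO library was above every C PMN library in CPM, which held for 2 of the 37 genes and for 16.3% of all genes listed.

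**Figure D5:**
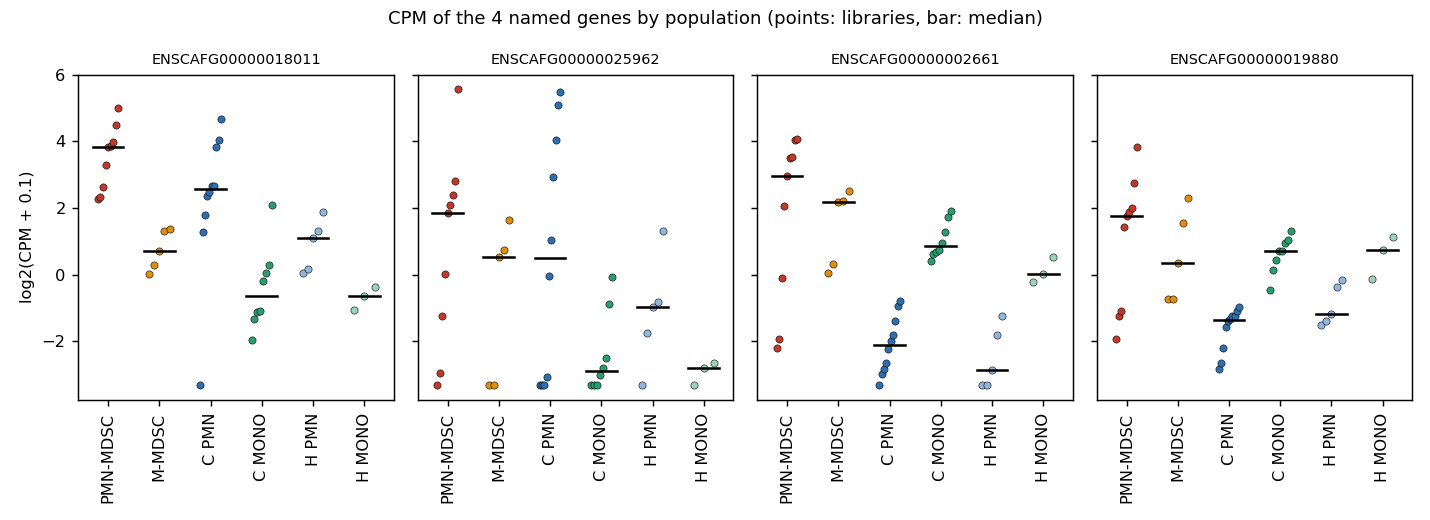
CPM of the 4 named genes on a log2 scale after adding 0.1, with a point for each library and a bar at the median of each population. The 2 genes on the right have C PMN values of at most 0.473 CPM and C MONO values of at least 0.627 CPM.

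The 6 genes lower in C PMNs than in C MONOs and the 12 higher also differed in their PMN-MDSC values, which share the C PMN libraries with that test. The C PMN medians were 0.0187 to 0.325 CPM for the 6 genes and 0.639 to 5.83 CPM for the 12. The log2 fold change of PMN-MDSCs over C PMNs was 3.68 to 7.05 in 5 of the 6 genes that could be tested and -0.63 to 3.46 in the 12. Since C PMNs are the reference in both, a low C PMN level enters both values. For M-MDSCs over C MONOs the log2 fold changes were -0.42 to 0.70 in the 6 genes and -0.17 to 2.97 in the 12.

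The summed CPM of C PMN libraries was carried by few of the genes. In 4 of the 10 libraries the sum was 129 to 148 CPM, and in the other 6 it was 41.1 to 63.6 CPM. Gene 29 had 50.8, 39.0, 58.4 and 49.99 CPM in these 4 libraries, which was 26.3% to 44.1% of their sums. Genes 2, 8, 24, 32 and 37 were the other leading genes there. The library prefix did not separate these libraries, with 2 of each prefix. Gene 29 was not called between C PMNs and C MONOs.

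The prefixes were also compared within the populations that the limits did not use. In C PMNs, edgeR called 0 of 26 genes tested and 0% of all 10303 genes. At an unadjusted p under 0.05, 1 of the genes was higher in GAR4079 and 1 lower, against 12.3% of all genes in either direction. DESeq2 called 1 of them, against 5.63% of all genes. In C MONOs, edgeR called 0 of 35 genes and 0% of all 11645 genes, with 0 higher and 2 lower at an unadjusted p under 0.05, against 9.39% of all genes. DESeq2 called 0 of them there, against 1.59% of all genes. The difference between these prefix differences was tested by edgeR in 37 genes and called in 0, and in 0% of all 12586 genes, with 1 higher and 3 lower at an unadjusted p under 0.05, against 8.5% of all genes. Where edgeR called no gene of any kind, its count of 0 says nothing about the 37 genes.

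The same limits were then applied to the GAR4079 libraries alone, which left the PAT4694 libraries unused. They gave 46 genes, of which 32 were among the 37. In the PAT4694 libraries, the PMN-MDSC median was 3 CPM or more in 23 (50%) of the 46, against 0.762% of the 14566 genes under both healthy limits. The M-MDSC median was 1 CPM or more in 31 (67.4%), against 5.05%. Both held for 15. Over all libraries, 143 of the 14566 genes reached the PMN-MDSC limit and 441 the M-MDSC limit, so that most were low in MDSCs. The 46 genes were chosen as present in GAR4079 MDSCs, which favors them in both contrasts. The shares describe how far presence carried over between prefixes, and nothing more is read from them. The median over the 46 genes of the PMN-MDSC median was 6.76 CPM in GAR4079 libraries and 2.95 CPM in PAT4694 libraries, and replicates 8 and 9, which were in the low set above in CPM, are 2 of the 4 PAT4694 libraries. The C PMN value was 0.408 CPM in PAT4694. The PMN-MDSC median was above the C PMN median in 39 (84.8%) of the 46, against 40.9% of genes with a count in either. The M-MDSC median over the 46 genes was 1.67 CPM and the C MONO median 1.64 CPM in PAT4694, and the M-MDSC median was the higher in 25 (54.3%) against 42.9% of genes with a count in either.

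In tests on the PAT4694 libraries, edgeR called 0 of 32 genes tested between PMN-MDSCs and C PMNs (n = 4 and 4) and 0% of all 9666 genes, so that this count says nothing about the chosen genes. At an unadjusted p under 0.05, 11 of them were higher and 0 lower, against 6.19% of all genes in either direction, and DESeq2 called 6 higher, against 0.941% of all genes. Between M-MDSCs and C MONOs (n = 2 and 4), edgeR called 0 of 43 genes and 0.075% of all 11996 genes, with 1 higher and 5 lower at an unadjusted p under 0.05, against 16.2% of all genes in either direction. DESeq2 called 5 lower, against 4.57% of all genes.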

How the data were processed

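The authors aligned trimmed read pairs to CanFam3.1 and the ERCC spike-ins with HISAT2, marked duplicates with Picard 1.92 and counted uniquely mapped reads on exons of Ensembl genes with featureCounts (Subread 1.5.0, per the submitters' processing notes). The deposited counts were not normalized. The deposited CPM values were checked to be the counts divided by the total of each library, spike-ins included. The gene length behind the deposited TPM values is not given in the sources used here. Whether duplicates were removed is not stated, and a second CPM table was not used.

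The 37 genes were taken from the CPM values, and they and the lists were chosen with earlier results of these data known. Counts were fitted on all genes with edgeR 4.0.16 (quasi-likelihood, TMM, filterByExpr) in R 4.3.3, in the libraries of the populations compared, with Benjamini-Hochberg adjustment and calls at an FDR of 0.05. DESeq2 1.42.0, other scaling and filters, the prefix as a term or alone, and leaving out libraries were alternatives. The code was tested on simulated data. Depth was 4229857 to 60473238 counts per library, and reads were not counted as molecules. Each healthy list held the 50 highest genes with a mean of at least 50 CPM in 1 lineage, 50-fold less in the other and no overlap. Lists of cell type and MDSC genes by symbol were not analysed here. Named by ID were the 2 genes of smallest FDR in each direction between C PMNs and C MONOs. Genes given by number alone were chosen after their values were seen. Figures were drawn with matplotlib 3.10.9.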

Additional observations from a re-analysis of the deposited data

Results flagged for a closer look

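For the summed level, the median level and the number of genes at 1 CPM or more in each population, and for the 4 named genes and genes 1 and 2, the highest or lowest library was set against the rest by Dixon's gap over range. Of 45 sets of 4 to 10 libraries, 11 (24.4%) held a library past the 95% limit. For normally distributed values chance gives about 1 in 20. CPM values were used without a log scale and can be skewed, and the sets share libraries, so that nothing is read from this share. In PMN-MDSCs, replicate 8 stood apart for ENSCAFG00000025962 at 47.3 CPM and replicate 2 for ENSCAFG00000019880 at 14.2 CPM. In M-MDSCs, replicate 2 stood apart in the summed level at 193 CPM and in gene 1 at 41.1 CPM. In C PMNs, replicate 7 had only 6 of the 37 genes at 1 CPM or more, and it had the lowest depth of all libraries. Also in C PMNs, replicate 1 stood apart in gene 1 at 8.92 CPM and replicate 4 in gene 2 at 21.5 CPM. In C MONOs, replicate 5 stood apart in the summed level at 163 CPM, in the median level at 2.53 CPM and in ENSCAFG00000018011 at 4.12 CPM. In H PMNs, replicate 1 stood apart in ENSCAFG00000025962 at 2.37 CPM.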

How the results depend on the processing

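No paired analysis was possible because the labels give neither a replicate number nor a dog that the populations share. The limits gave 37 genes, 90 with means in place of medians (35 of the 37 kept), and 29 to 46 with 1 library left out (29 to 37 kept). With TMM factors in the CPM, 24 of the 37 were kept. Between C PMNs and C MONOs, 12 of 34 genes tested were called higher and 6 lower. The counts were 4 and 10 with library size alone and 3 and 1 of 31 in PAT4694 libraries alone. At an FDR of 0.01 they were 7 and 2, where 6103 of all 11261 genes were called in either direction. For genes chosen by means, 20 of 71 tested were called higher and 8 lower, against 31.5% and 34.1% of all genes. Without the library under 10000000 counts, 12 of the 34 genes tested were called higher and 6 lower, where 8201 of all 11376 genes were called in either direction. The median log2 fold change was then 0.16, against -0.09 for all genes. With 1 library left out, 11 to 13 were called higher and 4 to 7 lower, where 7095 to 8201 of all genes were called in either direction. Between PMN-MDSCs and C PMNs, 17 of 33 genes tested were called higher, and 15 to 23 with 1 library left out. In the fits with 1 library left out, 653 to 1554 of all genes were called higher. For genes chosen by means, 32 of 74 tested were called higher, against 8.47% of all genes. Without the libraries under 10000000 counts, 22 of 35 tested were called higher, against 1504 of all 10436 genes. In PAT4694 libraries alone 0 were called, as were 0 of all 9666 genes, so that this count says nothing about them. DESeq2 called 1 gene higher between M-MDSCs and C MONOs, as did edgeR for genes chosen by means (1), and DESeq2 called 1 between prefixes in C PMNs. In the PAT4694 libraries DESeq2 called 6 higher in PMN-MDSCs and 5 lower in M-MDSCs, where edgeR called 0. Leaving out 1 library left edgeR at 0 calls in M-MDSCs against C MONOs, between prefixes and in the PAT4694 comparisons. None of the 4 named genes changed direction under the settings in which they were tested, and genes 14 and 33 lost their call in PAT4694 libraries alone (-2.17 and -1.40). The causes of these changes were not tested. TMM factors moved the median summed level in C PMNs from 57.7 to 118 CPM. The PAT4694 libraries are few and hold both libraries of low depth, which limits what they can show.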
